A study of Mus musculus with 14 samples.

Results

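The loss of ZFP36L2 was compared between 2 organs of the mouse by asking, gene by gene, whether the difference between L2-fKO and wild-type animals was the same in the spleen as in the ovary. All 14 libraries of the series enter this comparison, 8 from spleen and 6 from ovary, and 18580 of the 18603 genes found in both deposited tables were tested, those with 10 or more reads in at least 3 libraries. The quantity reported is the interaction, the log2 difference L2-fKO minus wild-type in the spleen minus the same difference in the ovary, so that a positive value marks a gene whose change was higher in the spleen and a negative value one whose change was lower there. The wild-type animals (WT in the labels; 4 spleens and 3 ovaries) were littermates with both wild-type copies of *Zfp36l2*. The knockout animals (L2-cKO in the labels, L2-fKO in the study; 4 spleens and 3 ovaries) carried 2 recombined *Zfp36l2* alleles, from which the second exon, flanked by loxP sites, had been removed. All animals of both genotypes carried the Tg.CMV-Cre transgene, whose promoter is active in the early embryo, so the deletion reached every tissue and no result here can be assigned to loss of the protein within a particular cell type. The spleens were taken from animals of both sexes, with females as replicates 1 and 3 of the wild-type group and replicate 3 of the L2-fKO group, while all ovaries came from females. No age is given in the labels. In the study the L2-fKO animals died as pups and the genotypes were matched for age, the spleens in pairs, but the labels do not say which animals formed a pair. As their source, the spleen libraries have the words spleen organoid in the labels, and they are called spleens here. L2-fKO spleen 3 and L2-fKO ovary 1 carry the same animal number, so that the 14 libraries came from 13 animals, each otherwise sampled once. In 2 wild-type spleen labels the number is 3, and the male of these is called wild-type spleen 4.

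ZFP36L2 belongs to the tristetraprolin family of zinc finger proteins, with ZFP36 and ZFP36L1. These proteins bind adenine and uridine rich elements (AREs) in the 3′UTR of mRNAs and recruit deadenylases, which shortens the life of the mRNA, so that loss of the protein is known to raise the level of bound transcripts. The heptamer UAUUUAU is the element this family is best known to bind. In the study's gel shift assays, probes with an isolated heptamer bound ZFP36L2 and ZFP36L1, while no binding of ZFP36 was detected. In the blood system ZFP36L2 is needed for progenitor cells, and in the ovary it is known from the maturation of the oocyte.

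The libraries held 39138010 to 45167464 reads on genes per spleen and 31052510 to 44270070 per ovary. Values below are normalized counts, reads divided by a TMM-scaled library size and brought to a common size, unless reads are named, and a level set across organs compares tables that were made separately. *Zfp36l2*, the deleted gene (chr17:84183931-84187947, GRCm38, minus strand), had 8529, 5758, 7152 and 5202 in the wild-type spleens and 328, 381, 417 and 473 in the L2-fKO spleens, and 4165, 4161 and 4035 in the wild-type ovaries and 642, 854 and 850.5 in the L2-fKO ovaries. Genotypes did not overlap in either organ, as was so for 17.5% of all genes tested in spleen and 25.4% in the ovary. The reads are summed over the gene, so whether those left lie outside the removed exon is not shown. The labelled organs matched their markers: the granulosa cell factor *Foxl2* had 4288 to 7810 reads per ovary and at most 1 per spleen, and *Spic*, a factor of splenic red pulp macrophages, 1317 to 4897 reads per spleen and 6 to 39 per ovary. Some libraries stood apart. Among the L2-fKO spleens, replicate 4 had the highest summed level of interferon-stimulated genes (134690.0 against 48349 to 55264 in the other 3) and of macrophage genes. L2-fKO ovary 2 had the lowest summed level of granulosa genes (110686 against 178847 or more in the other ovaries), and wild-type spleens 1, 2 and 4 carried mRNAs of the exocrine pancreas. The part of these differences in the results was not tested, and counts without each library are given where they move.

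The effect of the knockout differed between the organs mainly in genes that changed in the spleen and showed no passed change in the ovary. Of the 18580 genes, 258 had a higher and 372 a lower change in the spleen than in the ovary at an adjusted p below 0.05 and an absolute log2 interaction above 1 (quasi-likelihood test of edgeR, adjusted by Benjamini-Hochberg over all genes), 3.39% of genes in all; such genes are called below. By the adjusted p alone, 970 genes (5.22%) passed, 477 higher and 493 lower. The median interaction over all tested genes was -0.02, so the calls are set against a centre close to 0. Of the 630 called genes, 230 had passed the test upward in the spleen and not in the ovary, and 303 downward in the spleen and not in the ovary. In the ovary and not in the spleen, 33 had passed upward and 14 downward. A further 6 fell in the spleen and rose in the ovary, and 1 did the reverse. Both effects passed in the same direction for 1 downward gene, *Zfp36l2*, and 1 upward gene, *Gm15915*, named after its values were seen. For the other 41 neither effect passed on its own and the 2 effects had opposite signs, with medians of -0.56 in the spleen and 0.87 in the ovary. Leaving out L2-fKO spleen 4 took the number lower in the spleen to 577. Without wild-type ovary 1, 159 genes were higher and 234 lower, and 240 were lower without wild-type ovary 2. The genes with an effect in the spleen alone numbered 355 without wild-type ovary 1, and those with an effect in the ovary alone 9, 16 and 19 without wild-type ovaries 1, 2 and 3 and 22 without L2-fKO ovary 2. In bulk tissue, fewer cells of a type and less RNA per cell cannot be told apart.

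**Figure D1:**
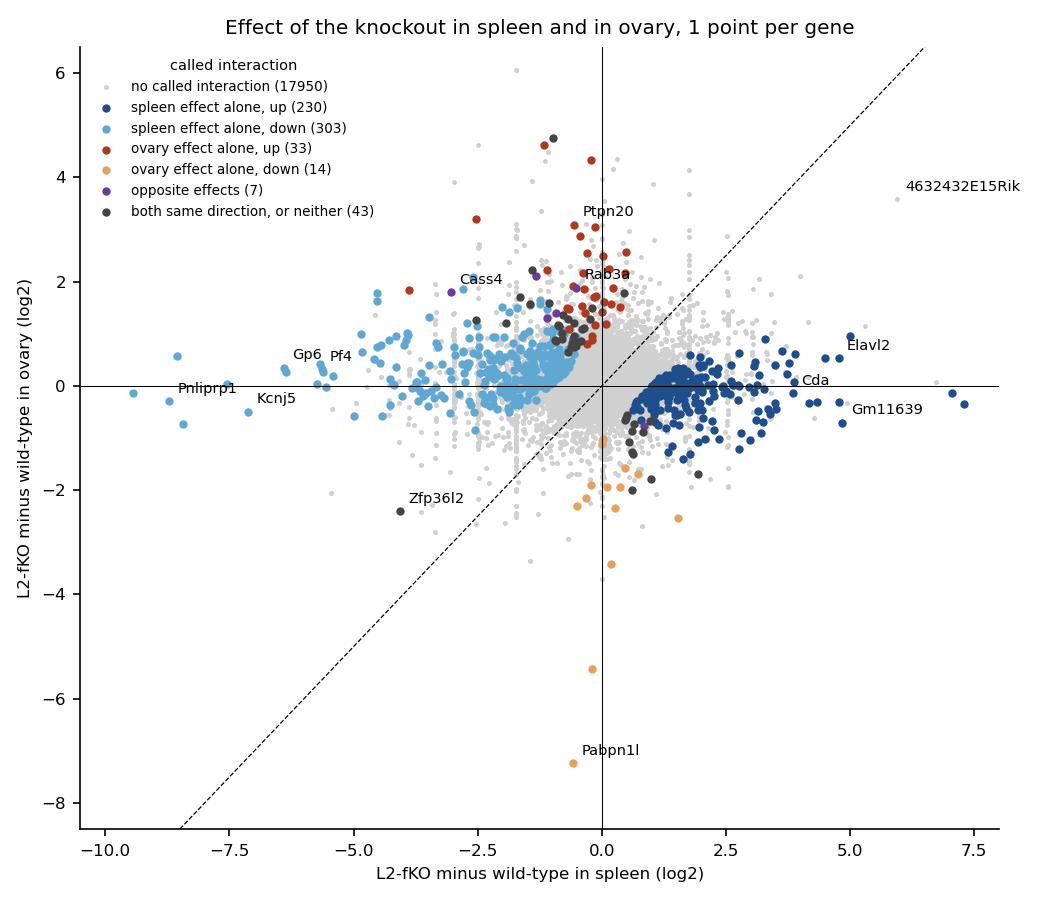
Each point is 1 of 18580 genes, placed by its log2 difference L2-fKO minus wild-type in spleen (x axis) and in ovary (y axis), with genes of a called interaction coloured by which organ's effect passed an adjusted p of 0.05; the dashed line marks equal effects. Most coloured points lie along the x axis, 230 to the right and 303 to the left, with few along the y axis.

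**Figure D2:**
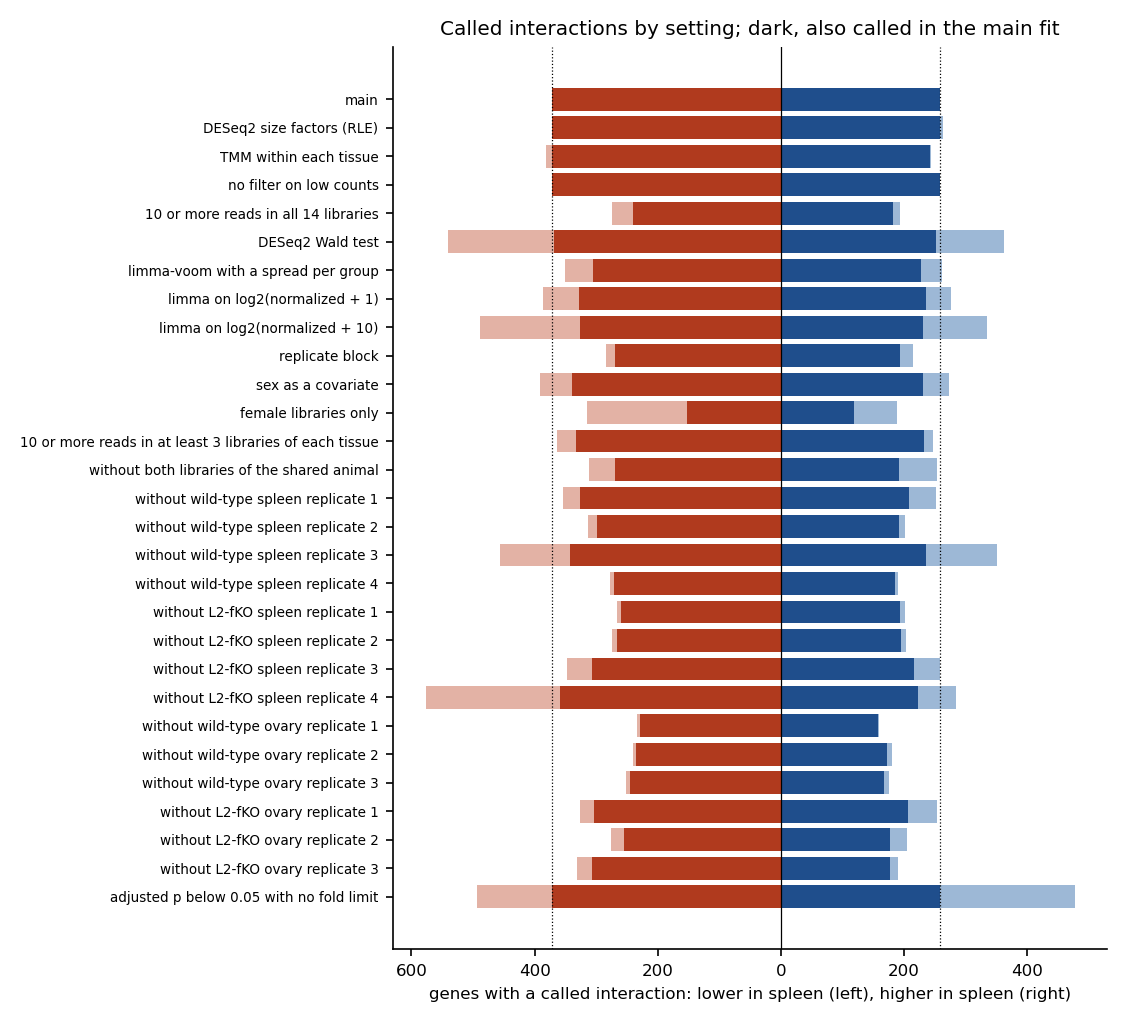
Genes with a called interaction under each setting (y axis), lower in the spleen to the left and higher to the right; the dark part of a bar is genes also called as reported and the dotted lines mark the reported 372 and 258. The counts run from 159 higher and 234 lower without wild-type ovary 1 to 577 lower without L2-fKO spleen 4 and 477 higher with no fold limit.

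A call in one organ and none in the other did not by itself show a difference between them. In the same fit, 480 genes rose and 518 fell by more than 1 log2 unit in the spleen (2.58% and 2.79% of genes), and 121 rose and 36 fell in the ovary (0.651% and 0.194%). Of the 982 genes past these limits in the spleen and not in the ovary, 458 (46.6%) had a called interaction, 199 of 473 rising and 259 of 509 falling. For the other 524 a difference between the organs was not shown. Of the 141 genes past the limits in the ovary and not in the spleen, 47 (33.3%) had one, 33 of 111 rising and 14 of 30 falling. Past the limits in both organs were 16 genes, 13 of them in the same direction, and of those 1 had a called interaction. Over all tested genes, Pearson's r between the effects in the 2 organs was 0.0189, a description across genes, which are not independent replicates.

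For most genes with an effect in the spleen alone the ovary data were tight enough to bound the effect there. Among the 230 that rose in the spleen, the 95% interval of the ovary effect lay below a log2 difference of 1 for 214, and its median was -0.10, with quartiles of -0.31 and 0.07. Among the 303 that fell in the spleen, the ovary interval lay above -1 for 282, and the median ovary effect was 0.27. For the 33 that rose in the ovary alone the spleen interval excluded a log2 rise of 1 for 30, and for the 14 that fell in the ovary alone it excluded such a fall for 9. These effects share the called interaction that chose the genes, so the shares are descriptions. The genes were measured in both organs: 571 of the 630 had 10 or more reads in at least 3 libraries of each organ, 57 did not in the spleen and 3 did not in the ovary, 1 of them in neither. Of the 230 genes that rose in the spleen alone, 175 had a higher mean in the wild-type ovary than in the wild-type spleen. Of the 303 that fell in the spleen alone, 132 did. The share over all tested genes was not counted, and the 2 organs were counted in separate tables, so these counts mark no trait of either set.

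The deleted gene itself differed between the organs. *Zfp36l2* in L2-fKO was at 6.00% of the wild-type mean in the spleen and 19.0% in the ovary, log2 effects of -4.06 ± 0.17 (SE, adjusted p = 6.6e-09) and -2.40 ± 0.18 (SE, adjusted p = 1.02e-05). Its interaction was -1.66 ± 0.24 (SE, adjusted p = 0.000889), with a 95% interval of -2.16 to -1.16. The paralogs showed no called interaction. *Zfp36*, tristetraprolin, had an interaction of -0.80 ± 0.33 (SE, adjusted p = 0.187) and *Zfp36l1* one of -0.19 ± 0.21 (SE, adjusted p = 0.647), with effects of -0.25 and 0.10 in the spleen and 0.54 and 0.29 in the ovary. Of the 44 measured ARE-binding proteins and mRNA decay factors, 1 was called higher and 1 lower in the spleen, against 1.39% and 2.00% of all genes, and their median interaction was -0.04. These were *Elavl2* and *Tob1*. *Tob1*, an adaptor that recruits the CCR4-NOT deadenylase, had 785, 745, 630.2 and 823 in the wild-type spleens and 465, 399.5, 415 and 425 in the L2-fKO spleens, and 1243, 1124 and 1103 in the wild-type ovaries and 1291, 1316 and 1495 in the L2-fKO ovaries. It fell in the spleen and showed no passed effect in the ovary, with an interaction of -1.05 ± 0.17 (SE, adjusted p = 0.00187). The call was lost without wild-type spleen 4 or L2-fKO ovary 3, where the log2 value came under 1 (adjusted p 0.00562 to 0.00718).

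*Elavl2*, a member of the ELAV family of RNA-binding proteins known from neurons and germ cells, was barely read in the wild-type spleen and abundant in the ovary. The gene lies at chr4:91250763-91400785 (GRCm38, minus strand), and its longest 3′UTR in GENCODE M21 holds the heptamer 3 times in 2477 bases. The sites are shown, each with 10 bases on either side and the heptamer in capitals in DNA letters. They were chosen because ZFP36L2 binds this element and the change of this gene differed between the organs.

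Elavl2 site 1, chr4:91252700-91252726, minus strand: tttacattttTATTTATgaagttacaa
Elavl2 site 2, chr4:91252679-91252705, minus strand: ttacaaacagTATTTATtttgtaattc
Elavl2 site 3, chr4:91250907-91250933, minus strand: gtaaggctggTATTTATttgaagttgt

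*Elavl2* had 2.18, 2.44, 1.11 and 8.44 in the wild-type spleens and 108, 88.2, 145 and 52.7 in the L2-fKO spleens, and 3285, 3638 and 3476 in the wild-type ovaries and 4485, 6548 and 3949 in the L2-fKO ovaries. The raw reads behind the spleen values were 2, 2, 1 and 7 in wild-type and 88, 68, 112 and 53 in L2-fKO spleens. Every L2-fKO spleen exceeded every wild-type spleen, and all ovaries lay far above both. The spleen effect was 4.77 ± 0.45 (SE, adjusted p = 6.31e-06) and the ovary effect 0.53 ± 0.26 (SE, adjusted p = 0.561), with an ovary interval of -0.03 to 1.08. The interaction was 4.24 ± 0.56 (SE, adjusted p = 0.000441). Genotypes did not overlap in either organ, although the ovary effect did not pass the adjusted test.

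**Figure D3:**
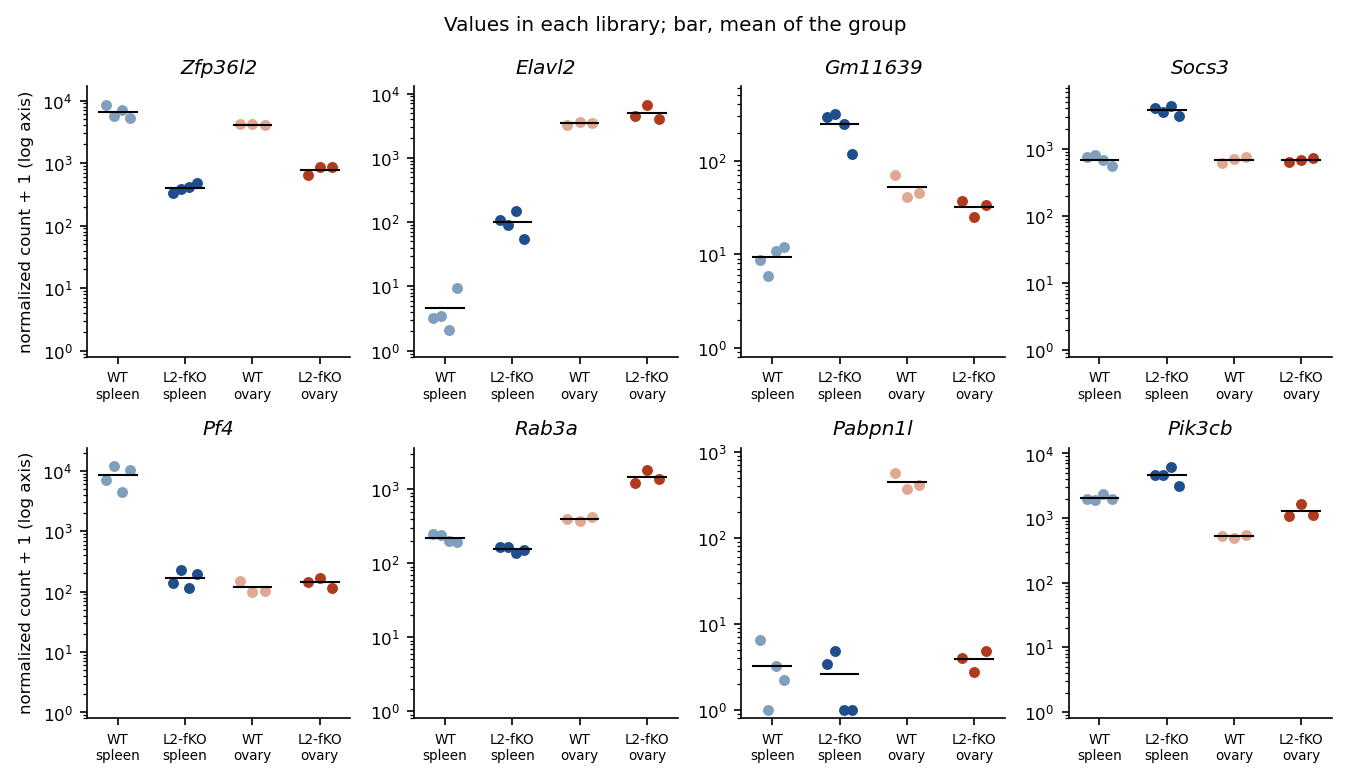
Normalized counts plus 1 (log axis) of 8 genes in each library, in wild-type and L2-fKO spleens (4 each) and ovaries (3 each); the bar is the mean of the group. *Elavl2*, *Gm11639* and *Socs3* rise in the spleen with ovary effects that did not pass the test, *Elavl2* being higher in every L2-fKO ovary than in every wild-type ovary, *Pf4* falls in the spleen, *Rab3a* falls slightly in the spleen and rises in the ovary, *Pabpn1l* is read almost solely in the wild-type ovary, and *Pik3cb* rises in both.

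Among genes with a mean of 100 or more normalized counts in at least 1 group and no overlap between genotypes in the organ that changed, those of largest interaction that rose in the spleen with no passed ovary effect were *Gm11639*, *Elavl2*, *C2cd4a*, *Tpsb2*, *Cda* and *Zfp750*. *Gm11639*, a predicted protein-coding gene, had 7.62, 4.87, 9.95 and 10.8 in the wild-type spleens and 293, 315, 247 and 118 in the L2-fKO spleens, and 69.7, 40.4 and 43.7 in the wild-type ovaries and 36.3, 24.3 and 32.6 in the L2-fKO ovaries. In the ovary the 2 genotypes differed in the other direction without passing the test (-0.71 ± 0.36 SE, adjusted p = 0.589), and the interaction was 5.55 ± 0.52 (SE, adjusted p = 3.25e-05). *Cda*, cytidine deaminase of the pyrimidine salvage pathway, had 99.0, 85.3, 65.2 and 68.7 in the wild-type spleens and 1186, 1106, 1672 and 636 in the L2-fKO spleens. In the ovaries it stayed within 42.5 to 52.1, and the interaction was 3.99 ± 0.39 (SE, adjusted p = 3.4e-05). *C2cd4a*, a small protein with a C2 domain, rose in the spleen from 9.64 to 87.3 in wild-type to 971 to 1439 in L2-fKO. Its interaction of 4.03 ± 0.84 (SE, adjusted p = 0.0126) was lost without wild-type ovary 3 (adjusted p = 0.0616). *Zfp750*, a transcription factor known from epidermal differentiation, had an interaction of 3.97 ± 0.65 (SE, adjusted p = 0.00264). Its spleen effect was 2.77, from 1.21 to 7.62 in wild-type and 15.6 to 37.0 in L2-fKO spleens, with 7, 1, 5 and 1 reads in wild-type. The ovary effect was -1.20 ± 0.39 (SE, adjusted p = 0.231), with 259, 207 and 163 in wild-type and 138, 53.8 and 80.6 in L2-fKO ovaries. Only the wild-type ovary mean reached 100. Of these 6 genes, *Elavl2* was the 1 that held the heptamer in its longest 3′UTR among the 5 for which one was annotated.

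Of 14 measured mast cell and basophil genes, 7 rose in the spleen and 0 passed in the ovary (adjusted p below 0.05), against 9.66% of all genes rising in the spleen, 0.786% rising in the ovary and 0.226% falling there. At these shares 0 in the ovary is near the background for a list of this length. The interaction was called higher in the spleen for 7, against 1.39% of all genes, and the median over the 14 interactions was 2.87 against -0.02 over all genes. The 7 were the proteases *Cpa3*, *Cma1*, *Mcpt4*, *Tpsab1* and *Tpsb2*, the serotonin-synthesis enzyme *Tph1*, and the receptor *Mrgprb1*. *Cpa3*, carboxypeptidase A3, had 229.5, 309.5, 397 and 265 in the wild-type spleens and 1092, 1544, 361 and 2097 in the L2-fKO spleens, and 366, 249 and 403 in the wild-type ovaries and 238, 102 and 162 in the L2-fKO ovaries. L2-fKO spleen 3 lay within the wild-type range, so the groups overlapped in the spleen, and the L2-fKO ovaries were all below the wild-type ovaries. The interaction was 3.10 ± 0.62 (SE, adjusted p = 0.00948), with 2.09 ± 0.41 (SE, adjusted p = 0.00268) in the spleen and -1.01 ± 0.46 (SE, adjusted p = 0.499) in the ovary. *Tpsb2*, a mast cell tryptase, had 78.3, 405, 483 and 345 in the wild-type spleens and 2345, 2529, 920.3 and 4573 in the L2-fKO spleens, with every L2-fKO spleen above every wild-type spleen. Its interaction was 4.02 ± 0.74 (SE, adjusted p = 0.00582). Those of *Tph1* and *Mcpt4* were 4.09 ± 0.77 (SE, adjusted p = 0.00649) and 3.70 ± 0.73 (SE, adjusted p = 0.00917). Summed over the 14 genes, levels were 4680.1, 7045, 6719 and 6438 in the wild-type and 13648, 16017, 6489 and 22360.4 in the L2-fKO spleens. In the ovary they were 3000.2, 1962 and 3130.4 in the wild-type and 2147, 1581 and 1509.9 in the L2-fKO ovaries. With female libraries alone, where L2-fKO spleen 3 is the single knockout spleen, 0 were called. The direction of the median ovary effect, -0.72, was the reverse of that in the spleen, 2.02.

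Many collagens and other matrix genes rose in the spleen. Of 29 collagen genes, 14 rose and 1 fell in the spleen and 0 rose or fell in the ovary (adjusted p below 0.05), against 9.66% of all genes rising in the spleen and 0.786% in the ovary. The interaction was called higher in the spleen for 4, against 1.39% of all genes, *Col18a1*, *Col23a1*, *Col26a1* and *Col27a1*, with a median of 0.46 over the list. *Col26a1* had 367, 305, 435 and 324 in the wild-type spleens and 2266, 1849.7, 2647 and 2136 in the L2-fKO spleens, and 2976, 2852 and 3034 in the wild-type ovaries and 2513, 3283 and 3218 in the L2-fKO ovaries. The rise in the spleen was 6.22-fold between the means, and its interaction was 2.61 ± 0.21 (SE, adjusted p = 1.32e-05), with an ovary effect of 0.02 (95% interval -0.30 to 0.35). *Col18a1*, the precursor of endostatin, had an interaction of 1.28 ± 0.13 (SE, adjusted p = 4.87e-05) and *Col23a1*, a transmembrane collagen, one of 1.91 ± 0.24 (SE, adjusted p = 0.000343). Of 51 measured matrix glycoproteins, proteases and modifiers, 31 rose in the spleen, 7 were called higher in the spleen, *Adamts2*, *Adamts4*, *Adamts12*, *Emilin1*, *Lum*, *P3h2* and *Plod2*, and 1 lower, *Ltbp1*. The count of 7 came to 4 without wild-type spleen 4, 4 without L2-fKO spleen 4 and 3 without wild-type ovary 1. *Lum*, a leucine-rich proteoglycan of collagen fibrils, had 54.4, 89.0, 76.3 and 90.4 in the wild-type spleens and 356, 250.3, 299 and 263 in the L2-fKO spleens, and 5927, 4323 and 5893 in the wild-type ovaries and 5960.2, 5649.8 and 6308 in the L2-fKO ovaries. All L2-fKO spleens were above all wild-type spleens, and the interaction was 1.76 ± 0.24 (SE, adjusted p = 0.000513). *Emilin1*, a glycoprotein of elastic fibres, and *Adamts4*, an aggrecanase, had 1.12 ± 0.15 (SE, adjusted p = 0.000517) and 1.62 ± 0.26 (SE, adjusted p = 0.0023). Summed collagen levels were 105293, 113497, 119599 and 119426 in the wild-type and 170127, 169686, 178649.6 and 225426 in the L2-fKO spleens, and 502783, 462775 and 463547 in the wild-type and 554564, 477181 and 527901 in the L2-fKO ovaries. L2-fKO spleen 4 was the highest spleen, and all L2-fKO spleens were above all wild-type spleens.

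Genes of cholesterol synthesis and uptake rose in the spleen. Of 23 genes, 22 had an interaction above 0, 7 were called higher in the spleen, against 1.39% of all genes, and the median was 0.63. In the spleen 14 rose and 0 fell, and in the ovary 0 passed in either direction (adjusted p below 0.05). Over all genes 9.66% rose in the spleen, and 0.786% rose and 0.226% fell in the ovary. The called genes included the synthesis enzymes *Cyp51*, *Sqle*, *Msmo1*, *Idi1* and *Fdps*. *Cyp51*, lanosterol demethylase, had 962, 1167, 755 and 1028 in the wild-type spleens and 2165, 2287, 2545 and 1387 in the L2-fKO spleens, and 1377, 1365 and 1440.3 in the wild-type ovaries and 1239, 1289.7 and 1286 in the L2-fKO ovaries. Its spleen effect was 1.10 ± 0.16 (SE, adjusted p = 0.000369) and its ovary effect -0.13 ± 0.19 (SE, adjusted p = 0.917), and the interaction was 1.23 ± 0.25 (SE, adjusted p = 0.00997). L2-fKO spleen 4 was the lowest L2-fKO spleen for the summed list (59436, 60576, 68153 and 49513 in the 4). Leaving out L2-fKO spleen 3, L2-fKO ovary 1, its pair from the same animal, or wild-type ovary 3 took the count of 7 to 4, and to 3 without both libraries of that animal.

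Among 31 mRNAs known as short-lived immediate-early or inflammatory transcripts, 2 were called higher and 0 lower in the spleen, against 1.39% and 2.00% of all genes. The list had a median of -0.12, and the 2 called were *Socs3* and *Pim1*. Both hold the heptamer, in overlapping copies, and the windows are shown because the genes were expressed in both organs and rose in the spleen.

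Socs3 site 1, chr11:117966140-117966166, minus strand: tttgcacataTATTTATatttatactc
Pim1 site 2, chr17:29495690-29495716, plus strand: ttaatgtattTATTTATttatttattt

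*Socs3*, an inhibitor of cytokine receptor signalling, had 752, 795, 672 and 545 in the wild-type spleens and 4016, 3569.7, 4305 and 3073 in the L2-fKO spleens, and 612, 705 and 741 in the wild-type ovaries and 625, 692 and 729 in the L2-fKO ovaries. Wild-type means were alike in the 2 organs, 691 ± 109.8 (SD, n = 4) and 686 ± 66.6 (SD, n = 3), and the L2-fKO mean was 5.42 times that of wild-type in the spleen and 0.993 times in the ovary. The interaction was 2.45 ± 0.21 (SE, adjusted p = 1.32e-05) with an ovary interval of -0.34 to 0.32. *Pim1*, a cytokine-induced kinase, had 18287, 10081, 9923 and 8644 in the wild-type spleens and 38029.9, 35596, 54486 and 24554 in the L2-fKO spleens, and 719, 719 and 648 in the wild-type ovaries and 819, 632 and 717 in the L2-fKO ovaries. Its interaction of 1.65 ± 0.37 (SE, adjusted p = 0.0175) was lost without L2-fKO ovary 2 (adjusted p = 0.0519).

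In the ovary list, 27 granulosa, theca and steroidogenic genes, 3 were called higher in the spleen and 0 lower, against 1.39% and 2.00% of all genes. The 3 were *Inhbb*, *Kitl* and *Wnt4*. *Inhbb*, the activin B subunit, rose in the spleen (1.44 ± 0.23 SE, adjusted p = 0.000702) and had -0.71 ± 0.25 (SE, adjusted p = 0.294) in the ovary, an interaction of 2.15 ± 0.34 (SE, adjusted p = 0.00218). *Kitl*, the ligand of the KIT receptor, had 4195, 5365, 5112 and 3968 in the wild-type spleens and 8353, 9636, 8267 and 10657 in the L2-fKO spleens, and 10895, 10176 and 10243 in the wild-type ovaries and 9119, 11102 and 8678 in the L2-fKO ovaries. *Kit*, the receptor, had 3205, 2844, 3044 and 3301 in the wild-type spleens and 908, 1243, 897 and 1493 in the L2-fKO spleens, and 6381, 7747 and 7014 in the wild-type ovaries and 8742, 15272 and 7947 in the L2-fKO ovaries. Ligand and receptor thus differed between genotypes in opposite directions in the spleen, with interactions of 1.10 ± 0.19 (SE, adjusted p = 0.00349) and -2.04 ± 0.30 (SE, adjusted p = 0.00117). *Wnt4*, a secreted signal, had an interaction of 1.93 ± 0.48 (SE, adjusted p = 0.0326) that was lost without wild-type spleen 2, L2-fKO spleen 1, wild-type ovary 1, wild-type ovary 2, wild-type ovary 3, L2-fKO ovary 1, L2-fKO ovary 2 or L2-fKO ovary 3 (adjusted p 0.0536 to 0.0787).

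**Figure D4:**
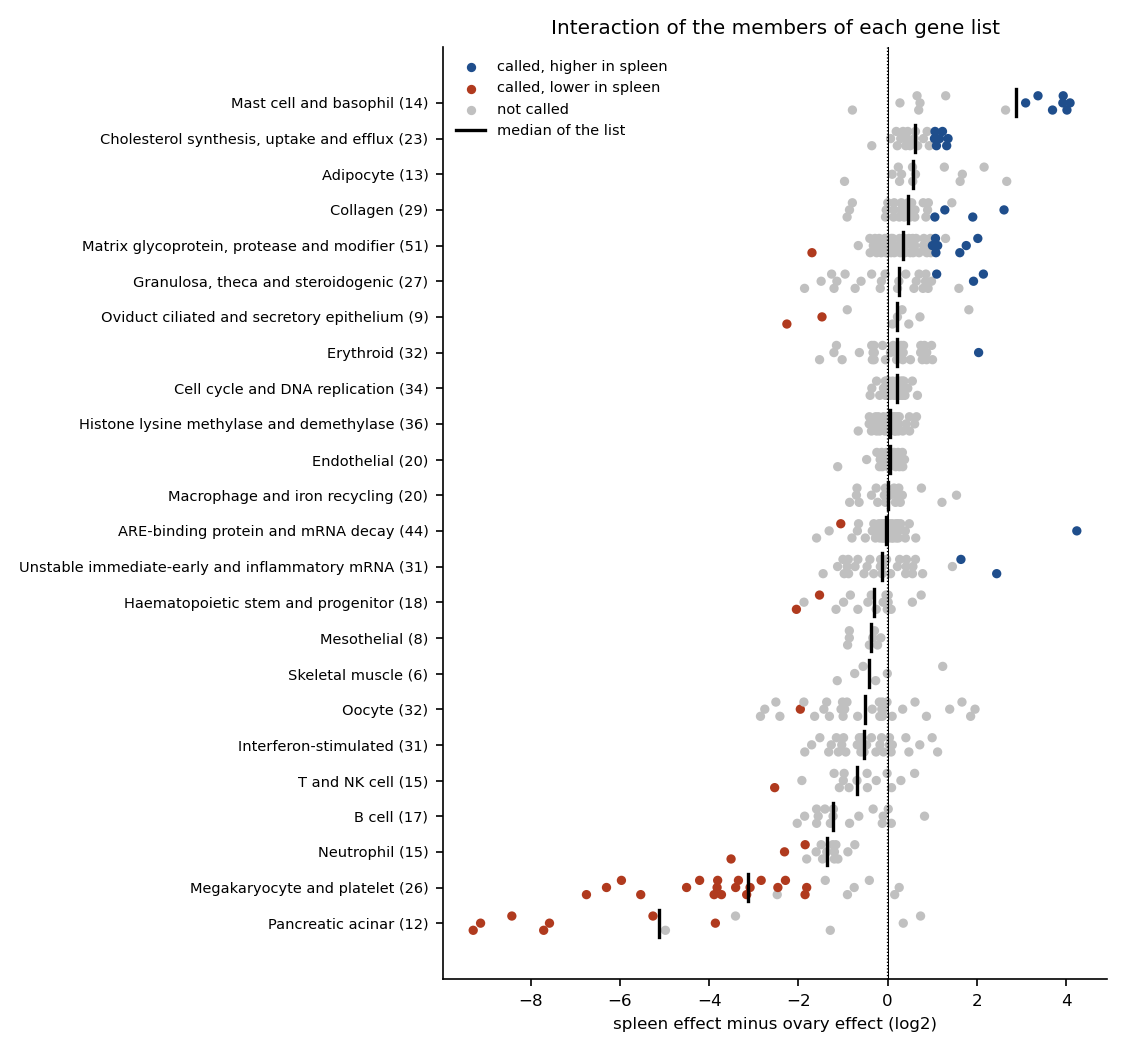
Interaction (log2, x axis) of each tested member of 24 gene lists, ordered by the median of the list (black bar), with called members in blue (higher in spleen) or red (lower in spleen) and the number tested in brackets. The pancreatic acinar, megakaryocyte and neutrophil lists lie to the left with medians of -5.12, -3.12 and -1.36, and the mast cell list to the right at 2.87.

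Genes of megakaryocytes and platelets fell in the spleen and, of the 24 lists, held the most called interactions. Of 26 measured, 19 were called lower and 0 higher in the spleen, against 2.00% and 1.39% of all genes, with a median interaction of -3.12. In the spleen 22 fell at an adjusted p below 0.05, against 7.92% of all genes, and in the ovary 1 fell and 0 rose, the former being the platelet signalling regulator *Rgs18*. The 19 called genes included the platelet receptors *Gp1ba*, *Gp1bb*, *Gp5*, *Gp6*, *Itga2b* and *Itgb3*, the granule proteins *Pf4*, *Vwf*, *Selp* and *Thbs1*, and the granule transport GTPase *Rab27b*. *Pf4*, platelet factor 4, had 6927, 12187, 4432 and 10179 in the wild-type spleens and 139, 224, 114 and 194 in the L2-fKO spleens, and 151, 97.8 and 101 in the wild-type ovaries and 146, 170.1 and 116 in the L2-fKO ovaries. In L2-fKO spleens it was at 1.99% of the wild-type mean, while the ovary groups overlapped, and the interaction was -5.97 ± 0.47 (SE, adjusted p = 1.32e-05). *Gp6*, the platelet collagen receptor, had 658, 966, 609 and 797 in the wild-type spleens and 4.93, 6.49, 9.09 and 13.9 in the L2-fKO spleens. Its ovary reads were 2, 11 and 17 in wild-type and 12, 13 and 11 in L2-fKO, few enough that the ovary effect is known only within -0.63 to 1.33, and the interaction was -6.75 ± 0.59 (SE, adjusted p = 2.03e-05). *Rab27b* was well measured in both organs, with 1196, 1642, 1379.9 and 1533 in the wild-type spleens and 117, 173, 92.2 and 165 in the L2-fKO spleens, and 604, 568 and 616 in the wild-type ovaries and 564, 463 and 495 in the L2-fKO ovaries. The L2-fKO ovaries were all below the wild-type ovaries, by much less than in the spleen at -0.23 (95% interval -0.64 to 0.18) against -3.39 (95% interval -3.79 to -2.99), and the interaction was -3.16 ± 0.26 (SE, adjusted p = 1.32e-05). Summed levels were 77355, 104730.2, 64172 and 90227 in the wild-type and 17076, 18117, 16196 and 21751 in the L2-fKO spleens, and 30971, 28093 and 20333 in the wild-type and 32292, 22833 and 22245 in the L2-fKO ovaries. The platelet genes *Ppbp*, *Treml1* and *Tubb1* had values in the spleen table only, and no interaction was computed for them.

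By the same limits and order, *Gp6*, *Kcnj5*, *F2rl2*, *2010005H15Rik*, *Mpig6b* and *Pf4* led the genes that fell in the spleen alone, and 4 of these are known from platelets. *Kcnj5*, an inwardly rectifying potassium channel subunit, had 354, 474, 418 and 493 in the wild-type spleens and 8.63, 2.59, 1.30 and 0 in the L2-fKO spleens, and 122, 103 and 119 in the wild-type ovaries and 89.3, 71.2 and 83.5 in the L2-fKO ovaries. The interaction was -6.62 ± 0.56 (SE, adjusted p = 1.32e-05). *F2rl2*, a thrombin receptor, went from 1042 to 1993 in wild-type to 36.3 to 84.3 in L2-fKO spleens. In the ovary it had 7.29, 14.2 and 17.9 in wild-type and 18.9, 96.3 and 24.96 in L2-fKO, with L2-fKO ovary 2 the highest, and the interaction was -6.30 ± 0.70 (SE, adjusted p = 0.0001). *Mpig6b*, an inhibitory receptor of megakaryocytes, had -6.09 ± 0.50 (SE, adjusted p = 1.32e-05), and *2010005H15Rik*, of the stefin A family, whose similar copies make its counts uncertain, -6.17 ± 1.04 (SE, adjusted p = 0.00303). The spleen effect of *2010005H15Rik* was -4.54. Its ovary effect, 1.64, was fitted on 5, 5 and 6 reads in wild-type and 15, 24 and 10 in L2-fKO, so the size of its interaction is uncertain.

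Neutrophil genes fell in the spleen, and a difference from the ovary was shown for few of them. All 15 measured fell in the spleen at an adjusted p below 0.05, against 7.92% of all genes, and 0 passed in the ovary, where 0.226% of all genes fell. All 15 interactions were below 0 with a median of -1.36, but 3 were called, *Itgb2l*, *Cd177* and *Pglyrp1*, against 2.00% of all genes called lower. *Cd177*, a neutrophil surface glycoprotein, had 2855, 3501, 4129.7 and 3156 in the wild-type spleens and 792, 1064, 227 and 1062 in the L2-fKO spleens, and 770.4, 768 and 768 in the wild-type ovaries and 915, 878 and 846 in the L2-fKO ovaries. L2-fKO spleen 3 was the lowest, and the interaction was -2.31 ± 0.48 (SE, adjusted p = 0.0114). *Itgb2l*, an integrin subunit, had -3.51 ± 0.67 (SE, adjusted p = 0.00761). This value takes in an ovary difference in the other direction that did not pass, 1.51 ± 0.53 (SE, adjusted p = 0.282). *Itgb2l* had 43.7, 39.0 and 28.9 in the wild-type ovaries and 118, 92.9 and 105 in the L2-fKO ovaries, with no overlap. *Pglyrp1*, a granule protein that binds peptidoglycan, had -1.85 ± 0.47 (SE, adjusted p = 0.033), which was lost without wild-type spleen 2, wild-type spleen 4, wild-type ovary 1, wild-type ovary 2, wild-type ovary 3, L2-fKO ovary 1, L2-fKO ovary 2 or L2-fKO ovary 3 (adjusted p 0.0523 to 0.0942). Summed levels were 186315, 219859, 297867 and 196312 in the wild-type and 68288, 76368, 14960.5 and 61215 in the L2-fKO spleens, where L2-fKO spleen 3 stood lowest, and 2693 to 3416 in all ovaries. Without L2-fKO spleen 3 the number called was 5. Of 18 stem and progenitor genes 2 were called lower, *Kit* and the homeobox gene *Hoxa9* (-1.53 ± 0.32 SE, adjusted p = 0.0119), and 3 passed the adjusted p without the fold limit.

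Genes of the exocrine pancreas were called lower in the spleen as a group, and their values followed single libraries. Of 12 measured, 7 were called lower, against 2.00% of all genes, with a median of -5.12. Summed levels were 25705, 8405, 1932 and 21869.7 in the wild-type and 1858, 1809, 2648 and 1549 in the L2-fKO spleens, and 2378, 2242 and 2329.8 in the wild-type and 1338, 1552 and 1347 in the L2-fKO ovaries. Wild-type spleens 1, 2 and 4 were high, and wild-type spleen 3 lay among the L2-fKO spleens. *Pnliprp1*, a pancreatic lipase-related protein, had 6929.9, 1700.0, 8.85 and 5725 in the wild-type and 8.63, 6.49, 18.2 and 1.99 in the L2-fKO spleens, and its interaction was -8.42 ± 1.72 (SE, adjusted p = 0.0107). *Zg16*, a zymogen granule protein, differed in having no overlap in the spleen, 373, 194, 98.4 and 325 in the wild-type spleens and 14.8, 10.4, 9.09 and 10.9 in the L2-fKO spleens, with an interaction of -3.86 ± 0.51 (SE, adjusted p = 0.000441). When the spread was estimated for each group, 1 of the 12 was called, and without wild-type ovary 2 4 were. The part of pancreas in these spleens in other results was not tested.

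**Figure D5:**
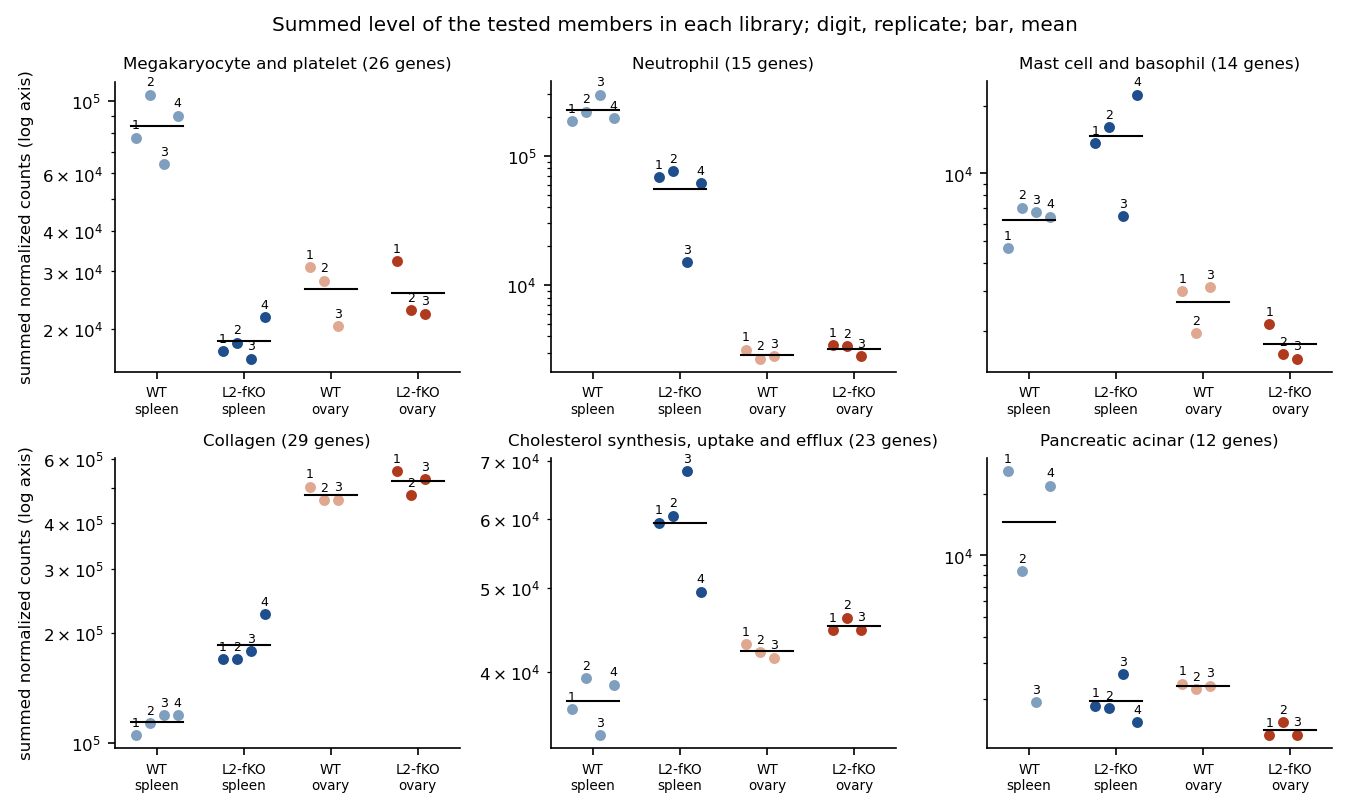
Summed normalized counts (log axis) of the tested members of 6 lists in each library; digits give the replicate and bars the mean of the group. Megakaryocyte, neutrophil, collagen and cholesterol sums separate wild-type from L2-fKO spleens, the mast cell sum does so except for L2-fKO spleen 3, and the acinar sum is high in wild-type spleens 1, 2 and 4 and not in wild-type spleen 3.

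The 33 genes that rose in the ovary alone included genes measured in both organs and genes near the limit of detection in the spleen. By the same limits and order, *Gm22009*, *Myt1*, *Psg17*, *Ptpn20*, *Gpr174* and *Cd4* led. *Gpr174* (chrX:107255878-107296769, GRCm38, plus strand), a receptor for lysophosphatidylserine, holds the heptamer 5 times in 3178 bases of 3′UTR, the most of these 6 after *Myt1*, which has 6. Its first and last copies are shown as an example of a gene that rose in the ovary and not in the spleen.

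Gpr174 site 1, chrX:107293716-107293742, plus strand: ggaatgcacaTATTTATgacaatacct
Gpr174 site 5, chrX:107296716-107296742, plus strand: ttgcagctctTATTTATcatatgaatt

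*Gpr174* had 671, 312, 263 and 301 in the wild-type spleens and 266, 298, 235 and 452 in the L2-fKO spleens, and 27.1, 39.0 and 17.2 in the wild-type ovaries and 142, 242 and 106 in the L2-fKO ovaries. All L2-fKO ovaries were above all wild-type ovaries, the spleen groups overlapped, and the interaction was -2.85 ± 0.55 (SE, adjusted p = 0.00806). *Cd4*, the coreceptor of helper T cells, rose in the ovary (2.16 ± 0.38 SE, adjusted p = 0.0112), with 52.1, 39.7 and 47.6 in the wild-type ovaries and 160.5, 266 and 193 in the L2-fKO ovaries, and had -0.37 ± 0.29 (SE, adjusted p = 0.408) in the spleen. Its interaction was -2.53 ± 0.47 (SE, adjusted p = 0.00645). Of 15 measured T and NK cell genes it was the 1 called, against 3.39% of all genes. Their summed ovary level was 2771, 2519 and 2791 in the wild-type and 2722, 2388 and 2717 in the L2-fKO ovaries. *Ptpn20*, a tyrosine phosphatase, had 6.25, 12.05 and 20.3 in the wild-type ovaries and 98.4, 177 and 62.4 in the L2-fKO ovaries, and 3, 4, 4 and 3 reads in the wild-type and 2, 3, 3 and 1 in the L2-fKO spleens. The ovary effect was 3.09 ± 0.44 (SE, adjusted p = 0.00329). The fitted interaction, -3.65 ± 0.80 (SE, adjusted p = 0.016), takes in a spleen effect fitted on these few reads, so its size is uncertain. *Psg17*, a pregnancy-specific glycoprotein, rose in the ovary (1.83 ± 0.31 SE, adjusted p = 0.0158) and had at most 3 reads in any spleen, and *Myt1*, a zinc finger transcription factor of the nervous system, rose (3.20 ± 0.56 SE, adjusted p = 0.0112) with at most 7 reads in any spleen. Both spleen groups were at or near the floor of 3 reads, so no spleen fold is given for them, and their fitted interactions, -5.72 and -5.73, depend on how zeros enter the fit. The call of *Psg17* was lost where wild-type spleen 1 or wild-type spleen 3 was left out (adjusted p 0.0526 to 0.0553) and *Myt1*, with an adjusted p of 0.046, in every fit that left out 1 library except those without wild-type spleen 1, wild-type spleen 2, wild-type spleen 3 or L2-fKO ovary 1 (adjusted p 0.0547 to 0.475 in the fits where it was lost). *Gm22009*, annotated as a small Cajal body RNA, had 3.12, 5.67 and 7.80 in the wild-type and 137, 276 and 11.5 in the L2-fKO ovaries, where L2-fKO ovary 3 lay far below the other two, and an interaction of -5.78 ± 1.07 (SE, adjusted p = 0.00582).

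Among the 14 genes that fell in the ovary alone, those of largest interaction by these limits were *Pabpn1l*, *Dppa2*, *Fam167a*, *Epb42*, *D6Ertd527e* and *Cd7*. *Pabpn1l*, a nuclear-type poly(A)-binding protein of oocytes and early embryos, had 537, 518 and 531 reads in the wild-type ovaries and 4, 2 and 4 in the L2-fKO ovaries, 0.642% of the wild-type normalized mean. The spleens held 5, 0, 2 and 1 reads in wild-type and 2, 3, 0 and 0 in L2-fKO, at or near the floor of 3 reads, so no spleen fold is given. It reached 10 reads in the wild-type ovaries alone and so passed the minimum only through the group where it is high, and its values are given as a description with no test. Of the 630 called genes 4 were of this kind, 2 through the wild-type and 2 through the L2-fKO ovaries. *Dppa2*, a chromatin factor of germ cells and early embryos, had 218, 172 and 149 in the wild-type ovaries and 27.3, 19.96 and 46.1 in the L2-fKO ovaries, and 0 to 6 reads in the spleens. The ovary effect was -2.53 ± 0.41 (SE, adjusted p = 0.00689). The fitted interaction, 4.06 ± 0.78 (SE, adjusted p = 0.00746), takes in a spleen effect fitted on these few reads, so its size is uncertain and no spleen fold is given. *Epb42*, protein 4.2 of the red cell membrane, had 101, 63.1 and 63.2 in the wild-type ovaries and 27.3, 29.5 and 17.3 in the L2-fKO ovaries, and 18613, 17807, 22087 and 22419 in the wild-type spleens and 29977, 27832, 35088 and 18289.9 in the L2-fKO spleens. The ovary values fell in an organ where the gene is low (-1.58 ± 0.29 SE, adjusted p = 0.0154), the spleen effect was 0.46 ± 0.19 (SE, adjusted p = 0.109), and the interaction was 2.04 ± 0.35 (SE, adjusted p = 0.00338). It was the 1 called gene of 32 measured erythroid genes, against 3.39% of all genes. The median interaction of the erythroid genes was 0.20. In the spleen 7 of them rose and 0 fell (adjusted p below 0.05), against 9.66% and 7.92% of all genes. In the ovary 0 rose and 1 fell, against 0.786% and 0.226%. Their summed levels overlapped between genotypes in both organs. *Cd7*, a lymphocyte surface protein, had 380.0, 337 and 353 in the wild-type ovaries and 83.3, 47.7 and 86.4 in the L2-fKO ovaries, and 534, 381, 226 and 296 in the wild-type spleens and 195, 228, 174 and 412 in the L2-fKO spleens. The interaction was 1.79 ± 0.46 (SE, adjusted p = 0.0368), and that of *Fam167a*, with 231, 209.8 and 177 in the wild-type ovaries and 64.3, 59.0 and 37.4 in the L2-fKO ovaries, was 2.04 ± 0.48 (SE, adjusted p = 0.0219). *D6Ertd527e* had 2115, 1724 and 1756 in the wild-type ovaries and 541, 273 and 445 in the L2-fKO ovaries, with an interaction of 1.83 ± 0.50 (SE, adjusted p = 0.046). Its spleens held 11, 13, 5 and 11 reads in wild-type and 7, 3, 10 and 11 in L2-fKO. The interaction takes in a spleen effect fitted on these few reads, so its size is uncertain. *Cd7* kept its call among the fits without 1 library only where wild-type spleen 1, wild-type spleen 3, L2-fKO spleen 1, L2-fKO spleen 3 or L2-fKO spleen 4 was left out (adjusted p 0.0538 to 0.0931 in the others), and *D6Ertd527e* only where L2-fKO spleen 2 or L2-fKO ovary 1 was (adjusted p 0.0502 to 0.106). *Fam167a* lost it without wild-type ovary 1, wild-type ovary 2 or L2-fKO ovary 3 (adjusted p 0.0524 to 0.0629).

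Opposite effects, each passing an adjusted p of 0.05, were found in 8 genes, 7 that fell in the spleen and rose in the ovary and 1, *Sdf2l1*, that did the reverse. The interaction was called for all but *Zbtb44*, whose log2 value of -0.89 was within the limit. *Rab3a* (chr8:70754679-70758677, GRCm38, plus strand), a GTPase of regulated exocytosis, holds 4 copies of the heptamer in 589 bases of 3′UTR, 3 of them overlapping in a repeat, and is shown as a gene that rose in the ovary and fell in the spleen.

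Rab3a site 1, chr8:70758130-70758156, plus strand: ccgactacccTATTTATtattgtagct
Rab3a site 3, chr8:70758150-70758176, plus strand: tgtagctattTATTTATttattgagga

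*Rab3a* had 250.2, 238, 200.1 and 194 in the wild-type spleens and 165, 165, 136 and 148 in the L2-fKO spleens, and 399, 375 and 426 in the wild-type ovaries and 1222, 1837 and 1369.8 in the L2-fKO ovaries. Genotypes did not overlap in either organ. The effects were -0.52 ± 0.15 (SE, adjusted p = 0.0262) in the spleen and 1.88 ± 0.17 (SE, adjusted p = 5.66e-05) in the ovary, and the interaction -2.41 ± 0.22 (SE, adjusted p = 3.1e-05) held under each alternative in which it was tested. *Card9*, an adaptor of fungal pattern receptors in myeloid cells, had 441, 557, 689 and 439.9 in the wild-type spleens and 198, 254, 105 and 289 in the L2-fKO spleens, and 55.2, 52.4 and 54.6 in the wild-type ovaries and 173, 349.8 and 178 in the L2-fKO ovaries. Its interaction was -3.43 ± 0.46 (SE, adjusted p = 0.000501). *Cass4*, a focal adhesion scaffold, had 202, 249.8, 98.4 and 204 in the wild-type spleens and 22.2, 29.8, 23.4 and 16.9 in the L2-fKO spleens, and 13.5, 18.4 and 19.5 in the wild-type ovaries and 40.9, 94.6 and 46.1 in the L2-fKO ovaries, an interaction of -4.83 ± 0.53 (SE, adjusted p = 8.57e-05). *Atp8a2*, a phospholipid flippase, and *Styk1*, a kinase-like membrane protein, fell in the spleen by 0.93 and 1.10 on the log2 scale and rose in the ovary by 1.40 and 1.30, with interactions of -2.33 ± 0.39 (SE, adjusted p = 0.00268) and -2.40 ± 0.40 (SE, adjusted p = 0.003). *Gdpd1*, a glycerophosphodiester phosphodiesterase family protein, had -1.48 ± 0.27 (SE, adjusted p = 0.0049). *Sdf2l1*, part of an endoplasmic reticulum chaperone complex, had 1649, 1375, 1649 and 1298 in the wild-type spleens and 2986, 2677, 2419 and 2652 in the L2-fKO spleens, and 699, 639 and 610.2 in the wild-type ovaries and 420.2, 295 and 426 in the L2-fKO ovaries. It rose in the spleen and fell in the ovary, and the interaction was 1.62 ± 0.20 (SE, adjusted p = 0.000258). The number of genes with opposite effects and a called interaction moved with the library left out, from 1 without any 1 of the wild-type ovaries to 21 without L2-fKO spleen 4.

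Effects in the same direction in both organs passed for 16 genes upward and 7 downward. The interaction was called for 1 of each, *Gm15915* and *Zfp36l2*, so for the others no difference between the organs was shown, which is not a test that the effects were equal. *Pik3cb*, the p110β catalytic subunit of PI 3-kinase, had 1968, 1918, 2378 and 1951 in the wild-type spleens and 4606, 4641, 6185 and 3177 in the L2-fKO spleens, and 521, 489 and 552 in the wild-type ovaries and 1084, 1672 and 1113 in the L2-fKO ovaries. It rose in both, by 1.18 ± 0.18 (SE, adjusted p = 0.00042) and 1.31 ± 0.21 (SE, adjusted p = 0.00648), and its interaction was -0.13 ± 0.27 (SE, adjusted p = 0.844) with a 95% interval of -0.71 to 0.45. Its 3′UTR holds the heptamer 4 times, and 2 of the sites are shown for comparison with *Elavl2*.

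Pik3cb site 1, chr9:99039180-99039206, minus strand: attttgttaaTATTTATcatgatggca
Pik3cb site 4, chr9:99038757-99038783, minus strand: gttcttaatgTATTTATtaaaatgtat

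*4632432E15Rik*, a transcript not assigned to a protein, had reads of 1, 0, 1 and 4 in the wild-type and 116, 65, 113 and 85 in the L2-fKO spleens, and 13, 23 and 12 and 257, 106 and 196 in the ovaries. It was near absent in wild-type spleen and rose in both organs. Its interaction, 2.37 ± 0.74 (SE, adjusted p = 0.081), did not pass. *Sfrp4*, a secreted Wnt antagonist, rose by 1.63 in the spleen and 1.45 in the ovary, and *Clec4n*, the fungal receptor dectin-2, by 1.39 and 1.69. Their interactions of 0.18 and -0.31 lay within their errors of 0.38 and 0.43. *Gm5150* also rose in both (1.15 and 1.97). Downward in both were *Robo3*, an axon guidance receptor (-3.42 and -2.28), *Rgs18* (-3.05 and -1.65), the transcription factor *Pax6* (-1.96 and -2.63) and the kinesin *Kif17* (-1.03 and -1.36). In the spleen *Pax6* had 18, 14, 3 and 15 reads in wild-type and 3, 1, 7 and 1 in L2-fKO. The spleen groups overlapped (adjusted p = 0.0446), so the size of its spleen effect is uncertain. *Rgs18* came closest to a difference, with an interaction of -1.40 ± 0.40 (SE, adjusted p = 0.0596). *Apol11b*, an apolipoprotein L family gene with similar copies nearby, rose in the spleen (3.997 ± 0.41 SE, adjusted p = 1.38e-05), had 2.10 ± 0.66 (SE, adjusted p = 0.204) in the ovary, and its interaction of 1.90 ± 0.83 (SE, adjusted p = 0.21) was not called. *Nfasc*, a neuronal adhesion protein, had 1.64 ± 0.50 (SE, adjusted p = 0.0746). The transcription factors *Ikzf2*, *Irf8* and *Nfix* had no passed effect in either organ and interactions of -0.34, -0.07 and -0.06 (adjusted p = 0.66, 0.957 and 0.858).

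The remaining lists gave few or no called genes. Over all genes 1.39% were called higher and 2.00% lower in the spleen. At these shares few or no calls are near the background for lists of such lengths, and they do not show equal effects. No gene was called among 17 B cell, 20 macrophage and iron recycling, 31 interferon-stimulated, 36 histone lysine methylase and demethylase, 34 cell cycle and DNA replication, 20 endothelial, 13 adipocyte, 8 mesothelial and 6 skeletal muscle genes. Their median interactions were -1.21, 0.00, -0.53, 0.06, 0.20, 0.05, 0.57, -0.37 and -0.41 in that order, against -0.02 over all genes. Of 32 oocyte genes 1 was called lower in the spleen, *Ddx4*, an RNA helicase of germ cells, with 109.9, 130.4, 182 and 225 in the wild-type spleens and 34.5, 40.2, 49.3 and 35.8 in the L2-fKO spleens, and 2492, 2958 and 2937 in the wild-type ovaries and 2059, 3834 and 2123 in the L2-fKO ovaries. It fell in the spleen, where it was low, and its interaction was -1.96 ± 0.37 (SE, adjusted p = 0.00645). Summed oocyte genes were 330915, 323127 and 342979 in the wild-type and 372438, 327268 and 362611 in the L2-fKO ovaries, and 543 to 807 in the spleens. The ovary groups overlapped, as they did for the summed granulosa genes, at 206843, 190645 and 179057 in the wild-type and 178847, 110686 and 181777 in the L2-fKO ovaries. Of 9 oviduct genes 2 were called lower in the spleen, *Pax8* (-2.26 ± 0.48 SE, adjusted p = 0.0133) and *Rsph1* (-1.47 ± 0.41 SE, adjusted p = 0.0492). Their reads in the spleens were 1 to 13 and 13 to 75, and *Rsph1* kept its call among the fits without 1 library only where wild-type spleen 3, L2-fKO spleen 4 or L2-fKO ovary 2 was left out (adjusted p 0.0533 to 0.126 in the others). *Kdm5b* and *Setdb1*, enzymes that act on histone lysines, passed the adjusted p with interactions within the fold limit, -0.66 ± 0.15 (SE, adjusted p = 0.0166) and 0.49 ± 0.12 (SE, adjusted p = 0.0274).

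The heptamer TATTTAT, in DNA letters, was counted on the sense strand, overlapping copies included, in 1 3′UTR per gene, the longest in GENCODE M21, which was known for 15453 of the tested genes. At least 1 copy was present in 4530 of 15453 (29.3%), and the median length of these 3′UTRs, with and without a copy, was 1131 bases. Among genes with a called interaction the share was 55 of 212 (25.9%) for those that rose in the spleen alone and 74 of 266 (27.8%) for those that fell there, with median lengths of 1578 and 1000 bases. Both lay close to the share over all genes. For genes that rose in the ovary alone it was 12 of 29 (41.4%), with a median length of 1276, and for those that fell there 1 of 14 (7.14%). Per 1000 bases of 3′UTR, copies numbered 0.286 over all genes, 0.269 in genes that rose in the spleen alone and 0.705 in genes that rose in the ovary alone. Among genes that rose by more than 1 log2 unit in the spleen, the share was 49 of 181 (27.1%) with a called interaction and 71 of 238 (29.8%) without. Among all genes that rose by more than 1 log2 unit in the ovary, it was 26 of 89 (29.2%), close to the share over all genes. These had 0.553 copies per 1000 bases and a median length of 744. These are counts of letters, with no test.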

How the data were processed

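RNA was extracted with TRIzol Plus and made into poly(A)-selected libraries (NEBNext Ultra II). The submitters' processing notes name Trimmomatic 0.36, STAR 2.5.2b, featureCounts of Subread 1.5.2, DESeq2 and GRCm38. Read counting by strand is stated for the spleen. For the ovary the study gives poly(A) libraries of total RNA and the same limits for a call, and the counting by strand is not given in the sources used here. For the spleen the authors deposited raw read counts for 49315 genes. For the ovary they deposited a signal, counts divided by 1 size factor per library, for 18603 genes, all in the spleen table. Dividing by the smallest step gave whole reads for 100% of values (tolerance 0.001), totalling 31052510 to 44270070 per library. Other deposited tables hold the authors' own fold changes and p-values and were not used. Of the 18603 genes, 18580 with 10 or more reads in at least 3 libraries were tested. Another 1833 genes over this minimum in the spleen table had no ovary value. One edgeR 4.0.16 quasi-likelihood model (R 4.3.3, TMM, 4 groups, no covariate) was fitted to all 14 libraries and gave the interaction and both simple effects, with Benjamini-Hochberg adjustment over all genes for each. It holds 1 spread per gene for both organs, while the common dispersion was 0.0478 in the spleen and 0.0258 in the ovary. A count test was thus used on recovered reads for the ovary. Tested on simulated data with 200 of 18488 genes changed by 2 log2 units in the interaction, it recovered 184 (92%) with 6 false calls. The simulated counts had the same spread in both organs, and the changed genes were above a minimum level in both. Unequal spread between the organs, and recovery of genes with very few reads, were thus not examined. Alternatives used limma 3.58.1 and DESeq2 1.42.0. Heptamers were counted in 3′UTRs of GENCODE M21 (GRCm38) on sequences of that release. Named genes were a fixed set, the 6 of largest interaction for each of 4 patterns, up to 8 each with opposite or shared effects, and the 4 members of lowest p in each of 24 lists. Members, lists and rules were chosen with earlier results of these data known. Results for a few genes are not reported here. Of the list members, 85 were not tested for want of a value or reads.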

Additional observations from a re-analysis of the deposited data

Results flagged for a closer look

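The test of the difference between the organs was called for 62 of the genes named by rule, in edgeR's quasi-likelihood test with an absolute log2 value above 1. Values are the spleen effect minus the ovary effect (log2). Higher in the spleen were *Pabpn1l* (6.66), *Gm11639* (5.55), *Elavl2* (4.24), *Tph1* (4.09), *Dppa2* (4.06), *C2cd4a* (4.03), *Tpsb2* (4.02), *Cda* (3.99), *Zfp750* (3.97), *Mcpt4* (3.70), *Cpa3* (3.10), *Col26a1* (2.61), *Socs3* (2.45), *Inhbb* (2.15), *Fam167a* (2.04), *Epb42* (2.04), *Wnt4* (1.93), *Col23a1* (1.91), *D6Ertd527e* (1.83), *Cd7* (1.79), *Lum* (1.76), *Pim1* (1.65), *Adamts4* (1.62), *Sdf2l1* (1.62), *Col18a1* (1.28), *Cyp51* (1.23), *Emilin1* (1.12) and *Kitl* (1.10). The value of *Pabpn1l* is a description, since it reached 10 reads in the wild-type ovaries alone.

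Lower in the spleen were *Cela2a* (-9.12), *Pnliprp1* (-8.42), *Cpb1* (-7.58), *Gp6* (-6.75), *Kcnj5* (-6.62), *F2rl2* (-6.30), *2010005H15Rik* (-6.17), *Mpig6b* (-6.09), *Pf4* (-5.97), *Gm22009* (-5.78), *Myt1* (-5.73), *Psg17* (-5.72), *Cass4* (-4.83), *Gp1ba* (-3.89), *Zg16* (-3.86), *Ptpn20* (-3.65), *Itgb2l* (-3.51), *Card9* (-3.43), *Rab27b* (-3.16), *Gpr174* (-2.85), *Cd4* (-2.53), *Rab3a* (-2.41), *Styk1* (-2.40), *Atp8a2* (-2.33), *Cd177* (-2.31), *Pax8* (-2.26), *Kit* (-2.04), *Ddx4* (-1.96), *Pglyrp1* (-1.85), *Zfp36l2* (-1.66), *Hoxa9* (-1.53), *Gdpd1* (-1.48), *Rsph1* (-1.47) and *Tob1* (-1.05). Of these 62 genes, 31 kept their call in every alternative that tested them. The lost calls given beside single genes above are from fits that each left out a library. Named genes also lost calls with female libraries only, a fit that holds a single L2-fKO spleen. Those losses are not listed by gene.

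In groups of 4, a library stood far from the rest of its group in 14 of 206 groups of named genes and summed lists (6.796%, where chance gives about 1 in 20). The ovary groups of 3 were not examined. In wild-type spleen 1 the level was the highest for *Apol11b* (6411 normalized counts), *Gpr174* (671) and *Pim1* (18287), wild-type spleen 3 for *Pik3cb* (2378) and *Itgb2l* (1971) and the lowest for *Pax6* (3.32), and wild-type spleen 4 the highest for *Myt1* (8.44). In L2-fKO spleen 3 it was the highest for *Myt1* (1.30), and in L2-fKO spleen 4 the highest for *Ikzf2* (322) and *Clec4n* (8771), and the highest for the summed macrophage genes (281594), collagens (225426), interferon-stimulated genes (134690.0) and endothelial genes (85172).

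*Fgf23*, a hormone of phosphate balance, had a median of 1664.5 reads in the L2-fKO spleens and was outside the comparison, having no ovary value.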

How the results depend on the processing

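Under the 28 alternatives no gene was called in the opposite direction. DESeq2 size factors, TMM within each organ, no filter on low counts and sex as a covariate kept the count of every comparison and list within 1.5 times. The counts higher and lower in the spleen, 258 and 372, were 362 and 540 with DESeq2, 262 and 351 with limma-voom and a spread per group, and 214 and 284 with the replicate block, of which 193 and 269 were also called without it.
With 10 or more reads in all 14 libraries, 278 genes fell in the spleen, 33 rose and 6 fell in the ovary, 26 had an ovary effect alone, 3 opposite effects, and 4 mast cell and 0 acinar genes were called.
With DESeq2, 217 rose and 85 fell in the ovary, 101 had an ovary effect alone, 32 opposite effects, 5 the same direction and 62 neither effect, and 5 neutrophil genes were called.
With limma-voom, 275 rose and 142 fell in the ovary, 99 had an ovary effect alone, 33 opposite effects and 25 neither, and 1 acinar gene was called.
With limma on log2 (normalized value + 1), 89 had an ovary effect alone and 1 acinar gene was called; with + 10, 197 rose and 96 fell in the ovary, 246 had an ovary effect alone, 15 opposite effects, and 5 neutrophil genes and 1 acinar gene were called.
With female libraries only, which leaves 1 L2-fKO spleen assumed to vary like the other groups, 292 rose in the spleen, 23 fell in the ovary, 16 had an ovary effect alone, 4 the same direction, and 9 neutrophil, 0 mast cell, 3 matrix and 0 acinar genes were called.
With no fold limit, 477 were higher in the spleen, 1794 rose and 1471 fell in the spleen, 852 had a spleen effect alone, and 7 collagens and 11 matrix genes passed.
Of the 2 alternatives chosen after seeing the data, 10 reads in 3 libraries of each organ left 44 genes rising and 17 falling in the ovary and 30 with an ovary effect alone, and without both libraries of the shared animal 5 neutrophil and 3 cholesterol genes were called.

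Leaving out each library in turn gave 159 to 351 genes higher and 234 to 577 lower in the spleen, 408 to 563 rising and 431 to 679 falling in the spleen, 33 to 155 rising and 8 to 51 falling in the ovary, 355 to 717 with a spleen effect alone, 9 to 57 with an ovary effect alone, 1 to 21 with opposite effects, 2 to 4 in the same direction and 19 to 67 with neither. Called list members numbered 19 to 22 megakaryocyte, 2 to 5 neutrophil, 5 to 8 mast cell, 3 to 6 collagen, 3 to 8 matrix, 4 to 8 cholesterol and 4 to 9 acinar genes.
Signs turned only for genes without a call. With female libraries only the interaction was 0.14 for *Nfix*, 0.18 for *Pik3cb* and -0.20 for *Kif17*, and without the shared animal 0.31 for *Irf8* and 0.066 for *Clec4n*. Without 1 library it ran from -0.41 to 0.18 for *Irf8*, -0.015 to 0.46 for *Sfrp4*, -0.19 to 1.09 for *Pax6*, -0.63 to 0.014 for *Clec4n* and -0.30 to 0.10 for *Pik3cb*. The causes were not tested.

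With the replicate number as a block within each organ, 63 genes rose in the ovary, 29 had an ovary effect alone, 1 had opposite effects and 4 cholesterol genes were called. Of the called named genes *Myt1*, *Psg17*, *Ptpn20*, *D6Ertd527e*, *Cd7*, *Pglyrp1* and *Rsph1* lost the call under the block (adjusted p 0.0517 to 0.0931). The labels tie the numbers to no litter, day or age-matched pair, and the numbers were not taken to pair the samples: same-numbered deviations correlated at -0.06, 0.08, 0.07 and -0.22 in the spleen and 0.38, 0.21 and 0.08 in the ovary, where each L2-fKO library correlated best with its own number, unlike in the spleen. The animal as a random block could not be fitted, since 1 animal gave 2 libraries. Depth limits genes near 0 reads in one organ: 57 called genes had under 10 reads in all but 2 spleens or fewer.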

Other observations

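The hormone *Fgf23* had spleen values only, with 2, 5, 6 and 0 reads in the wild-type and 1719, 1000, 2878 and 1610 in the L2-fKO spleens. The groups did not overlap, and no difference from the ovary was computed.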
